A study of Mus musculus with 16 samples.

Results

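The data described here are the levels of 4 X-linked genes, the homeobox genes Rhox5, Rhox6 and Rhox9 and the germline gene Fmr1nb, in Wt and Spen-/- mouse embryonic stem cells (ESCs) with and without forced Xist expression. The genes were chosen by their total read counts, as those lowest in induced Wt cells relative to induced Spen-/- cells, so that this contrast, at day 0 and at day 7, is given as a description with no test. They are 4 of 55421 genes in the count tables, of which 2585 are X-linked. All 4 passed the filter on low counts, as did 18150 genes in all and 715 X-linked genes.

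The study asked how SPEN, a repressor protein that binds Xist RNA, takes part in X chromosome inactivation. All cells were female F1 hybrids of 129/Sv and Cast/Ei that carry a doxycycline-responsive promoter at the endogenous Xist gene of the Cast X chromosome, so that the drug drives inactivation of the Cast X, whereas without it the 129 X is the one that is inactivated upon differentiation. The Spen-/- cells lack the whole Spen coding region on both alleles, and the sources used here do not tell whether the replicates of a genotype are separate clones, so that p-values measure the spread between these libraries. RNA-seq was done on 16 libraries, 2 in each of 8 conditions, namely Wt and Spen-/- cells at day 0 without doxycycline, at day 0 with it, at day 3 of monolayer differentiation without it and at day 7 of differentiation with it. Doxycycline was given at 2 µg/mL for 4 days before day 0 and through differentiation, and only the treated (here called induced) cells were sorted for a dsRed reporter, so drug and sort cannot be told apart. Day 3 was measured only without the drug and day 7 only with it. ESCs were grown on male feeder cells that were removed before differentiation.

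Rhox genes form a large X-linked cluster of reproductive homeobox transcription factors that are expressed in testis, ovary, placenta and early embryonic cells. Rhox5, also known as Pem, is the founding member of the cluster, and Rhox6 and Rhox9 (also called Psx1 and Psx2) were first described in placenta and germ cells. Fmr1nb lies beside Fmr1, the gene of the fragile X syndrome, and encodes a membrane protein of the cancer/testis class, whose genes are on in germ cells and mostly off in other adult tissues. Many genes of this kind are held off in somatic cells by methylation of their promoters. Because the 4 genes sit on the X chromosome, a female cell can express them from both alleles before inactivation and from 1 allele after it.

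In the GENCODE M21 annotation of GRCm38, Rhox5 lies at chrX:37804842-37808876 on the plus strand, Rhox6 at chrX:37826910-37829857 on the plus strand and Rhox9 at chrX:37899097-37901770 on the minus strand, with other Rhox genes around and between them. Fmr1nb lies more distally, at chrX:68761839-68804567 on the plus strand. Rhox6 and Rhox9 are near-copies of each other. Their coding sequences are 684 bases each, align without a gap and are identical at 620 bases (90.6%), with 64 differences. The longest stretch without a difference is 161 bases, longer than the 50-base reads of the study. It is shown with 40 bases on either side, in GENCODE M21 transcripts of GRCm38, because a read within it cannot be given to either gene. It lies in coding exon sequence (exon 2 of both genes, chrX:37827410-37827650 on the plus strand and chrX:37901127-37901367 on the minus strand, bases 127 to 367 of the coding sequence), and capitals mark the 11 bases that differ.
Rhox6: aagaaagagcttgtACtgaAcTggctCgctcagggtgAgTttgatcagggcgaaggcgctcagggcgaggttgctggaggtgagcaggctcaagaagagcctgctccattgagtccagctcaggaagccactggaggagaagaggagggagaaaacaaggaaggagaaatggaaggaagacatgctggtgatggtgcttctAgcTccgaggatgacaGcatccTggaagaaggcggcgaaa
Rhox9: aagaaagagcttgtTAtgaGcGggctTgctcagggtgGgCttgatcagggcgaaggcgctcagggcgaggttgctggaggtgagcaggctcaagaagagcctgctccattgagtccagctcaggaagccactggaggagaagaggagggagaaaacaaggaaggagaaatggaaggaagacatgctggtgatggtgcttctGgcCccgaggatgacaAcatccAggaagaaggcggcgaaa

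Of the 961 different 50-base words in the Rhox6 transcript, 159 (16.6%) also occur in Rhox9, and these are 6.28% of the 2531 words of the longer Rhox9 transcripts. The words of Rhox5 and Fmr1nb were found in no other gene. The authors' counting left out reads that fit more than 1 gene, so that Rhox6 and Rhox9 counts come from the parts where the sequences differ, and the share of their reads lost in this way is unknown. Reads that cross a single difference can still be placed in the wrong copy, and the 2 counts are therefore less certain than those of Rhox5 and Fmr1nb.

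The RefSeq table of promoters (GRCm38.p6) holds windows for 2 of the 4 genes, Rhox5 and Fmr1nb, each from 250 bases before to 50 after the start. Both are printed, as the only windows held for the 4 genes, and capitals mark CpG sites. The Rhox5 window is chrX:37754358-37754657 on the plus strand, 50.2 kb upstream of the GENCODE start of the gene. The Fmr1nb window is chrX:68761589-68761888 on the plus strand.
Rhox5: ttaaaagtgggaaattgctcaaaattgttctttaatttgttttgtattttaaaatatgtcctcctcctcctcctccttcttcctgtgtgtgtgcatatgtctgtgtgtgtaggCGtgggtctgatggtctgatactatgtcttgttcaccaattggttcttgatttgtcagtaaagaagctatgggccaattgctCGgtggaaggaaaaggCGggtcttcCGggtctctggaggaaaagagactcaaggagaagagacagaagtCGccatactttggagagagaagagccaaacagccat
Fmr1nb: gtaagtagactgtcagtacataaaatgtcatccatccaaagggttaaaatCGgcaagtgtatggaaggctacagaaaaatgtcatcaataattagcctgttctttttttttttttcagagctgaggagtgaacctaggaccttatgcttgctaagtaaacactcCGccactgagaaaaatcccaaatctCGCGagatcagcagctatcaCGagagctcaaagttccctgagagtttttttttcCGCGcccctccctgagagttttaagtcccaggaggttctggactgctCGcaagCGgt

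The Rhox5 window holds 5 CpG sites and the Fmr1nb window 9, against a median of 7 over 32851 windows, so neither stands at an extreme (38% and 54.2% of windows have fewer). The E-box CACGTG and the motif TCCCGC, which were searched on both strands, were in neither window, while they are in 7.15% and 20% of all windows. The motif CCGGAAG, bound by ETS factors, has 1 match on the minus strand of the Rhox5 window (CTTCCGG) and none in the Fmr1nb window, against 8.86% of all windows with a match on either strand.

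The libraries held 7571566 to 14822867 reads on genes, of which 13% to 15.3% could be given to an allele. Spen itself was at 16.2 to 43.5 CPM in the 8 Wt libraries (counts scaled to a common library total with TMM factors, the unit of all levels here) and at 0.129 to 5.45 in the 8 Spen-/- libraries, so the genotypes match the labels. Xist was at 181 and 282 CPM in Wt and at 80.9 and 38.6 in Spen-/- cells at day 0 with doxycycline, and at 995 and 741 against 199 and 75.1 at day 7. The share of allele-specific Xist reads that came from Cast was 0.954 in Wt and 0.868 in Spen-/- cells at day 0 with doxycycline, and 0.990 and 0.989 at day 7.

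Rhox5 was the most abundant of the 4 genes in every condition but Wt day 7, also per length, with 1008 and 1580 CPM per kilobase of exon in Spen-/- cells at day 7. In Wt cells at day 0 without doxycycline it was at 419 and 752 CPM (585 ± 236, SD, n = 2), and at 103 and 184 CPM (143.5 ± 57.9) with doxycycline. By day 7 with doxycycline it was at 15.6 and 17.9 CPM (16.7 ± 1.61). The 4 Wt conditions did not overlap with each other. Across Spen-/- cells it stayed within 695 and 1191 CPM in all 8 libraries, with means of 1058 ± 41.5, 1026 ± 66 and 975 ± 305 at day 0 without the drug, at day 0 with it and at day 7 with it. The day 3 cells without the drug held 223 and 340 CPM in Wt (282 ± 82.3) and 883 and 695 in Spen-/- (789 ± 133). All Spen-/- conditions stood above all Wt conditions except that the lower Spen-/- day 3 library lay below the higher Wt day 0 library without the drug, and neighbouring Spen-/- conditions overlapped in their order.

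Fmr1nb was at a lower level, with its Wt conditions in the same order by mean and its Spen-/- conditions in another. Wt cells held 84 and 100 CPM at day 0 (92.2 ± 11.5), 24.6 and 32.2 with doxycycline (28.4 ± 5.43), 85.5 and 95.4 at day 3 without it (90.5 ± 6.95) and 4.71 and 13.9 at day 7 with it (9.29 ± 6.47). The corresponding Spen-/- values were 189 and 181, 218 and 240, 241 and 202, and 252 and 234 CPM. Each Spen-/- library was above each Wt library for this gene. The order of conditions ran from Spen-/- day 7 (243 ± 12.6) over Spen-/- day 0 with doxycycline (229 ± 15.9) and day 3 (221 ± 28), whose libraries overlapped, to Spen-/- day 0 without it (185 ± 5.93) and the Wt conditions, of which day 0 and day 3 without doxycycline overlapped.

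Rhox6 and Rhox9 behaved differently from these. Rhox6 was at 112 and 134 CPM in Wt cells at day 0 (123 ± 15.8) and at 12.6 and 8.09 with doxycycline (10.3 ± 3.17), the lowest of its 8 conditions. At day 7 with doxycycline it was higher again, at 41.5 and 27.7 CPM (34.6 ± 9.74). In Spen-/- cells Rhox6 was at 199 and 181.5 CPM at day 0 (190 ± 12.5), at 127 and 122 with doxycycline (124.6 ± 3.99), and at 480 and 583 at day 7 (531.5 ± 73.1), its highest level. At day 3 without the drug it was at 48.1 and 73.7 CPM in Wt and 92.3 and 89.8 in Spen-/- cells. The induced Spen-/- cells at day 0 overlapped the uninduced Wt cells, and all other neighbours in the order of Rhox6 levels stood apart.

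Rhox9 ran in parallel. It was at 59.1 and 95.6 CPM in Wt cells at day 0 (77.3 ± 25.8), at 6.77 and 5.15 with doxycycline (5.96 ± 1.15), at 25.3 and 45 at day 3 and at 31 and 21.7 at day 7 with doxycycline. Spen-/- cells held 117 and 120.5 CPM at day 0, 70.7 and 68.1 with doxycycline, 53.2 and 52.4 at day 3 and 383 and 521.5 at day 7. Per kilobase of exon, Rhox9 was below Rhox6 in every library, with 154 and 209.6 against 475 and 577 CPM per kilobase in Spen-/- cells at day 7. In bulk RNA, fewer cells that express a gene and less RNA per cell cannot be told apart.

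**Figure D1:**
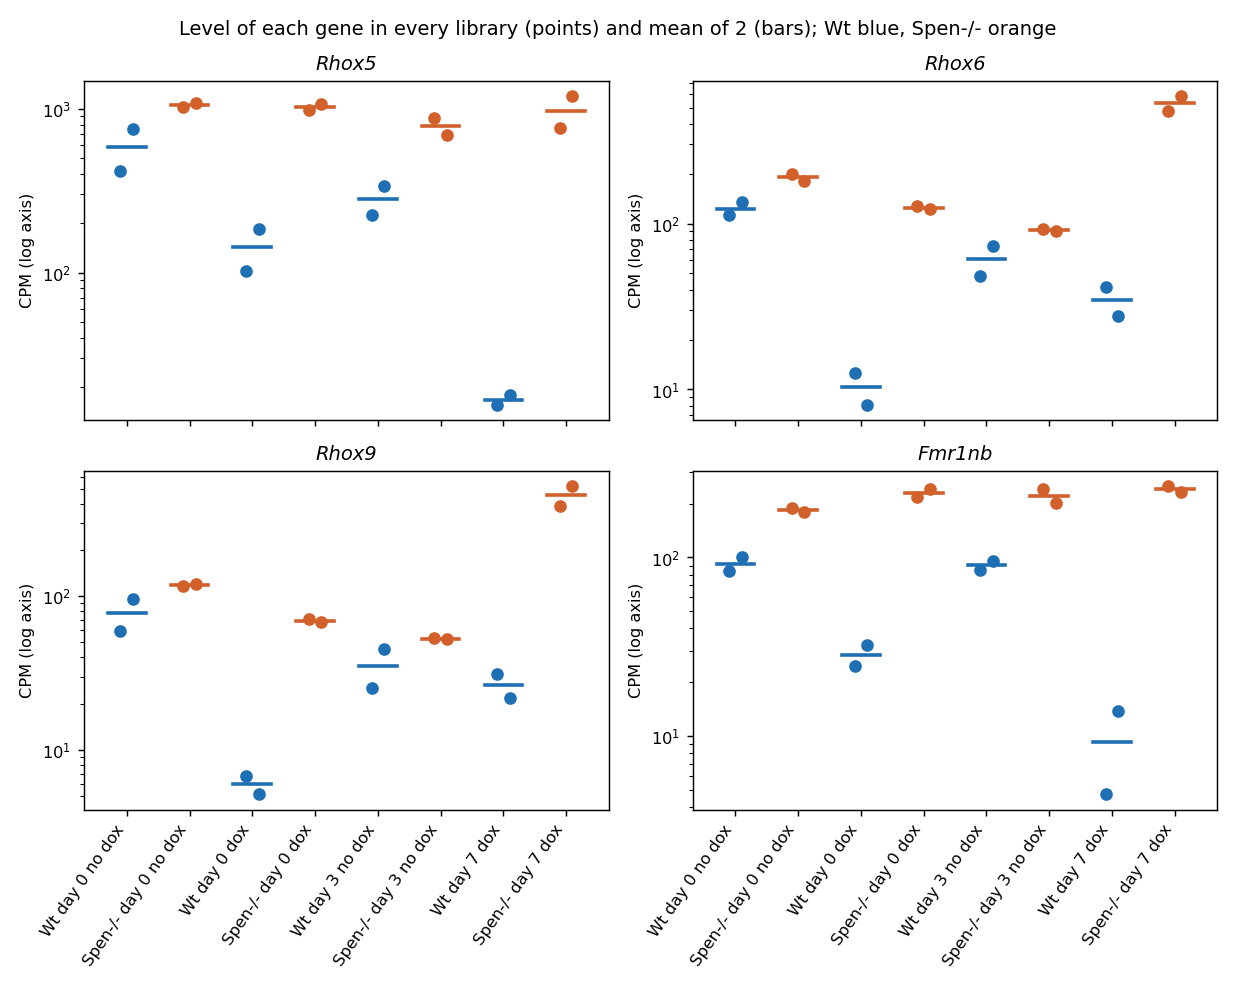
Level of Rhox5, Rhox6, Rhox9 and Fmr1nb in CPM (log axis) in the 8 conditions, with a point for each of 2 libraries, a bar for their mean, Wt in blue and Spen-/- in orange. Rhox5 and Fmr1nb were lowest in Wt cells at day 7 with doxycycline (16.7 and 9.29 CPM on average), Rhox6 and Rhox9 in Wt cells at day 0 with doxycycline (10.3 and 5.96 CPM).

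The contrast that chose the genes was large at both times. Between induced Spen-/- and induced Wt cells at day 0 the log2 fold change was 2.84 for Rhox5, 3.58 for Rhox6, 3.53 for Rhox9 and 3.01 for Fmr1nb, and at day 7 it was 5.87, 3.94, 4.10 and 4.71. The Fmr1nb value at day 7 was 4.09 without the first and 5.68 without the second Wt library, which held 4.71 and 13.9 CPM. The medians of all 715 tested X-linked genes were 0.52 and 0.53. Both Spen-/- libraries were above both Wt libraries for 4 of 4 genes at either time, as they were for 16.6% (day 0) and 19.6% (day 7) of all genes tested and for 41.5% and 40.8% of X-linked ones. Among 310 X-linked genes with a mean of at least 20 CPM they ranked 3 (Rhox6), 4 (Rhox9), 5 (Fmr1nb) and 6 (Rhox5) by fold at day 0 and 2 (Rhox5), 5 (Fmr1nb), 8 (Rhox9) and 10 (Rhox6) at day 7. Among all 715 tested X-linked genes, low ones included, Rhox6, Rhox9, Fmr1nb and Rhox5 ranked 33, 34, 46 and 51 at day 0, and Rhox5, Fmr1nb, Rhox9 and Rhox6 ranked 28, 46, 54 and 56 at day 7. Just outside the 4 at day 0, among the 310, stood Eda2r (rank 7) and Armcx4 (rank 8), at log2 fold changes of 2.11 and 1.99, while Plac1 (a mean of 0 CPM in Wt and 1.42 CPM in Spen-/- cells there) and 1700013H16Rik ranked above all 4.

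**Figure D2:**
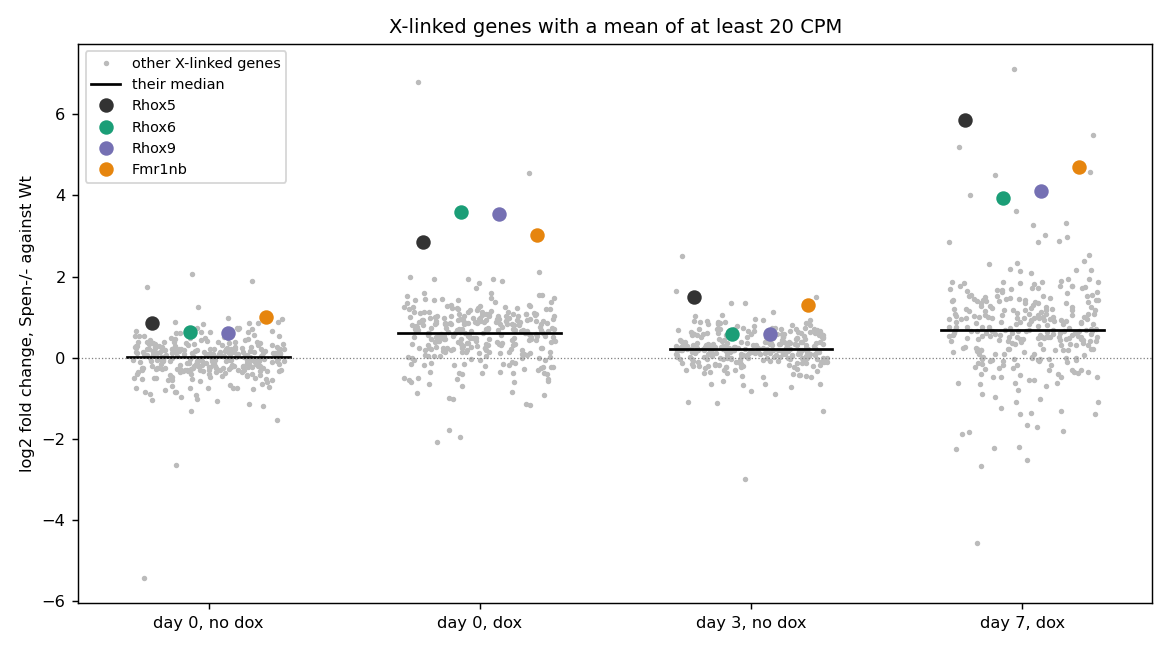
Log2 fold change of Spen-/- against Wt cells for 310 X-linked genes with a mean of at least 20 CPM, in the 4 pairs of conditions on the horizontal axis, with grey points for the other 306 genes, a black bar for their median and large points for the 4 genes. The medians of the other genes were 0.01, 0.62, 0.21 and 0.68 from left to right, and the 4 genes lay at 2.84 to 3.58 at day 0 with doxycycline and at 3.94 to 5.87 at day 7.

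Set against uninduced cells of the same genotype, which share the induced libraries with that contrast, the drug went with lower levels in Wt cells (log2 fold change of -2.03 for Rhox5, -3.57 for Rhox6, -3.69 for Rhox9 and -1.70 for Fmr1nb). Both induced libraries were below both uninduced ones for 4 of 4 genes, as for 17.1% of all genes and 42.8% of X-linked genes, whose median was -0.53. In Spen-/- cells the same comparison gave -0.04 for Rhox5, -0.61 for Rhox6, -0.77 for Rhox9 and 0.31 for Fmr1nb, with the libraries apart and lower for Rhox6 and Rhox9 (16.5% of all and 17.8% of X-linked genes), apart and higher for Fmr1nb (14.6% and 16.6%) and overlapping for Rhox5. From day 0 to day 7 under doxycycline, Rhox5 and Fmr1nb were lower in Wt cells (-3.10 and -1.61), whereas Rhox6 and Rhox9 were higher both in Wt (1.74 and 2.14) and in Spen-/- cells (2.09 and 2.70). In Wt cells the libraries did not overlap for any of the 4, where 28.6% of all genes (32.7% of X-linked ones) were lower and 29.3% (29.5%) higher without overlap, and in Spen-/- cells they did not overlap for Rhox6 and Rhox9, where 16.5% (21.4%) were higher. Rhox5 and Fmr1nb in Spen-/- cells differed by -0.07 and 0.08 over the same time, with overlap. The doxycycline conditions of 1 genotype share libraries across these comparisons.

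The alleles were next separated, to ask from which X chromosome the reads were missing in induced Wt cells, in which the drug drives Xist on the Cast X. Rhox5 could not be followed in this way, because only 2 of its 86481 reads held a variant between the strains. Of 20449 Rhox6 reads 4412 (21.6%) did, of 14534 Rhox9 reads 914 (6.29%) and of 19844 Fmr1nb reads 520 (2.62%). In uninduced Wt cells at day 0 the Cast share of allele-specific reads was 0.722 for Rhox6 (319 of 442 reads, 95% Wilson interval of 0.678 to 0.761), 0.592 for Rhox9 (45 of 76, 0.480 to 0.696) and 0.571 for Fmr1nb (28 of 49, 0.433 to 0.700), where the median X-linked gene had 0.516. These intervals and those below cover counting error only, and replicates differed by more than it in places, as with Rhox6 in these cells (0.792 and 0.626).

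In induced Wt cells at day 0 the Cast share was 0.417 for Rhox6 (25 of 60 reads, 0.301 to 0.543), 0 of 7 reads for Rhox9 (upper limit 0.354) and 1 of 21 for Fmr1nb (0.0476, 0.00846 to 0.227), with a median of 0.147 over X-linked genes. At day 7 it was 0.124 for Rhox6 (20 of 161 reads, 0.0819 to 0.184), 0.195 for Rhox9 (8 of 41, 0.102 to 0.340) and 0 of 5 reads for Fmr1nb. In Spen-/- cells at day 7 the shares were 0.495 (941 of 1900), 0.495 (236 of 477) and 0.489 (46 of 94). The Rhox6 replicates of Wt day 7 stood apart, with 18 of 92 and 2 of 69 reads from Cast.

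In induced Wt cells at day 0 both alleles of Rhox6 and Rhox9 were low. For Fmr1nb the Cast allele was low. Its 129 allele was below the uninduced level in both libraries, with few reads and a ratio whose interval spans 1. Rhox6 reads of the 129 allele were at 4.61 and 9.25 CPM in uninduced and 1.805 and 0.735 CPM in induced Wt cells at day 0, and those of Cast at 17.55 and 15.5 against 1.16 and 0.735. The induced level of the 129 allele was thus 0.217 times the uninduced one (35 against 123 reads, 95% counting interval of 0.144 to 0.318), and that of Cast 0.0597 times (25 against 319, 0.0381 to 0.0898). The 129 allele is the one on which Xist is not driven by the drug. For Rhox9 the 129 level was 0.172 times the uninduced one (7 against 31 reads, 0.0639 to 0.398), and Cast had 0 reads against 45, at least 19.7-fold lower when 3 reads over the group are taken as the floor. For Fmr1nb the 129 level was 0.726 times (20 against 21 reads, 0.373 to 1.41) and Cast had 1 read against 28, a ratio of 0.0272 (0.000665 to 0.165).

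Over 228 X-linked genes with enough reads the median ratio of the 129 allele between induced and uninduced Wt cells was 1.04, and that of Cast over 223 genes was 0.202. For the 129 allele both induced libraries were below both uninduced ones for all 3 genes, as for 18.4% of these X-linked genes. A fall of the total as large as that of Rhox6 and Rhox9 cannot come from 1 allele alone, so that low 129 levels in these libraries follow from the choice of the genes and are no separate result. The drug went in Spen-/- cells with a 129 ratio of 0.572 for Rhox6 (0.466 to 0.700), 0.843 for Rhox9 (0.530 to 1.33) and 0.778 for Fmr1nb (0.5 to 1.21), where the X-linked median was 0.923.

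Between genotypes the 129 allele of induced cells differed as well. This is the contrast that chose the genes, so that these values are a description and no separate result. In Spen-/- against Wt cells at day 7 the 129 level was 9.51 times as high for Rhox6 (959 against 141 reads, 7.96 to 11.4), 10.2 times for Rhox9 (241 against 33, 7.08 to 15.2) and 13.4 times for Fmr1nb (48 against 5, 5.37 to 43.2), where 211 X-linked genes had a median of 1.07. The Cast level was 65.8 times as high for Rhox6 (42.4 to 108) and 41.3 times for Rhox9 (20.6 to 96.7), and Fmr1nb had 46 Cast reads against 0, at least 21.4-fold higher by the same floor, where the X-linked median was 12.6. At day 0 with doxycycline the 129 ratios between genotypes were 6.69, 8.15 and 3.00 against an X-linked median of 1.01.

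**Figure D3:**
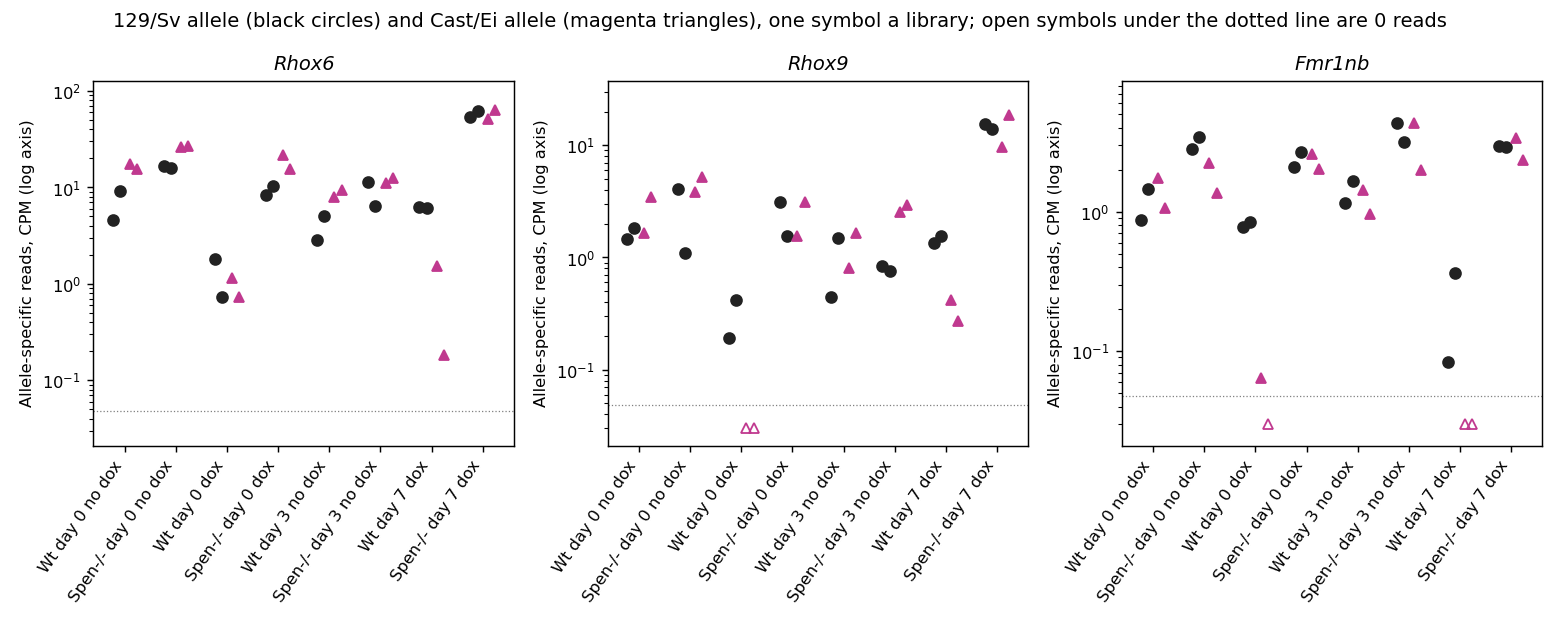
Allele-specific reads of Rhox6, Rhox9 and Fmr1nb in CPM (log axis) in each library, with black circles for 129/Sv, magenta triangles for Cast/Ei and open symbols under the dotted line for 0 reads. In Wt cells at day 0 with doxycycline Rhox6 was at 0.735 to 1.805 CPM over both alleles, against means of 6.93 (129) and 16.5 CPM (Cast) without it. Fmr1nb was at 0.7735 and 0.840 CPM on the 129 allele, against a mean of 1.16 CPM without the drug.

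The comparisons that the choice of the genes did not use are those among cells without doxycycline. The genotypes are the same as in the contrast that chose the genes, and a difference present with and without the drug would enter both. Higher levels in uninduced Spen-/- cells are therefore not independent of the choice. The spread in the edgeR fit also came from all 16 libraries, the induced ones included. Spen-/- cells at day 0 held more reads of each of the 4 genes than Wt cells, with both libraries above both for 4 of 4 genes, against 12.2% of all genes tested and 15.8% of X-linked genes. The log2 fold change was 0.85 for Rhox5 (SE 0.342), 0.63 for Rhox6 (SE 0.277), 0.62 for Rhox9 (SE 0.320) and 1 for Fmr1nb (SE 0.357), against a median of 0 over X-linked genes. None passed the adjusted threshold of 0.05 in the edgeR quasi-likelihood test with Benjamini-Hochberg adjustment (adjusted p = 0.984 for each, 0% of 18150 genes called), and 3 of 4 had an unadjusted p under 0.05, as did 4.56% of all genes. DESeq2 called 38 genes (0.209%) and none of the 4. Without the first Wt library 0 of the 4 had an unadjusted p under 0.05 in edgeR, and Rhox5, Rhox6, Rhox9 and Fmr1nb were at 0.50, 0.51, 0.32 and 0.88. The number was 1 without the second Spen-/- library, 2 without the first and 3 without the second Wt library, when Rhox5 and Rhox9 were at 1.32 and 0.99. The uninduced Wt cells of this comparison also serve as the reference for the drug.

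At day 3 without doxycycline the genotype difference was 1.49 for Rhox5 (SE 0.347, 95% interval of 0.73 to 2.24), 0.58 for Rhox6 (-0.03 to 1.19), 0.59 for Rhox9 (-0.12 to 1.29) and 1.29 for Fmr1nb (SE 0.359, 0.51 to 2.07). Again both Spen-/- libraries were above both Wt libraries for 4 of 4 genes, against 20.9% of all genes and 37.2% of X-linked genes, whose median was 0.23. None passed the threshold in edgeR (adjusted p = 1 for each of the genes, 0% of genes called). The unadjusted value was under 0.05 for Rhox5 and Fmr1nb, as it was for 3.22% of all genes. DESeq2 called 10 genes in this comparison (0.0551%), Rhox5 among them with a log2 fold change of 1.47 and an adjusted p of 0.0298, and edgeR with no filter on low counts called Rhox5 too (1.5, adjusted p = 1.23e-05), so the call rests on the tool and on the filter. Without the first Wt library of day 3 the differences of Rhox6 and Rhox9 were 0.30 and 0.22, and without the second they were 0.92 and 1.06. At this time Xist was at 67 and 44.7 CPM in Wt and 7.36 and 6.64 in Spen-/- cells.

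The 4 genes were then followed over differentiation without doxycycline, where their effects were not tested against each other. From day 0 to day 3 in Wt cells Rhox6 differed by a log2 fold change of -1.01 (SE 0.280, adjusted p = 0.111 in edgeR), Rhox9 by -1.14 (SE 0.324, adjusted p = 0.125 in edgeR) and Rhox5 by -1.06 (SE 0.344, adjusted p = 0.181 in edgeR), whereas Fmr1nb was at -0.03 (95% interval of -0.80 to 0.75). The first 3 had both day 3 libraries below both day 0 libraries, as did 23.5% of all genes and 26.7% of X-linked genes. In Spen-/- cells the values were -1.06 for Rhox6 (SE 0.279, adjusted p = 0.104 in edgeR), -1.17 for Rhox9 (SE 0.324, adjusted p = 0.122 in edgeR), -0.42 for Rhox5 (-1.17 to 0.32) and 0.26 for Fmr1nb (-0.51 to 1.03), with libraries apart and lower for the 3 Rhox genes (21.8% of all and 21.4% of X-linked genes) and apart and higher for Fmr1nb (24.6% and 31.6%). No member of the 4 was called in either genotype with edgeR, where 1.38% (Wt) and 1.23% (Spen-/-) of all genes and 2.1% and 1.68% of X-linked genes were. Unadjusted values were under 0.05 for the 3 Rhox genes in Wt and for Rhox6 and Rhox9 in Spen-/- cells, as for 13.4% and 13.1% of all genes. DESeq2 called Rhox5, Rhox6 and Rhox9 as lower in Wt cells (adjusted p = 0.0323, 0.0121 and 0.0194) and Rhox6 and Rhox9 as lower in Spen-/- cells (adjusted p = 0.00659 and 0.0131), where it called 6.35% and 5.86% of all genes.

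Whether the day 3 effect differed between genotypes was tested as the difference of these log2 fold changes. It was 0.63 for Rhox5 (95% interval of -0.42 to 1.68), -0.05 for Rhox6 (-0.90 to 0.81), -0.03 for Rhox9 (-1.02 to 0.96) and 0.29 for Fmr1nb (-0.81 to 1.38), none of them past the threshold (adjusted p = 1 in edgeR, 0% of genes called), and none with an unadjusted p under 0.05, as for 3.43% of genes. DESeq2 called 2 genes (0.011%), none of the 4. Each interval spans 0 and is wide, so smaller differences were not detectable with these libraries.

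**Figure D4:**
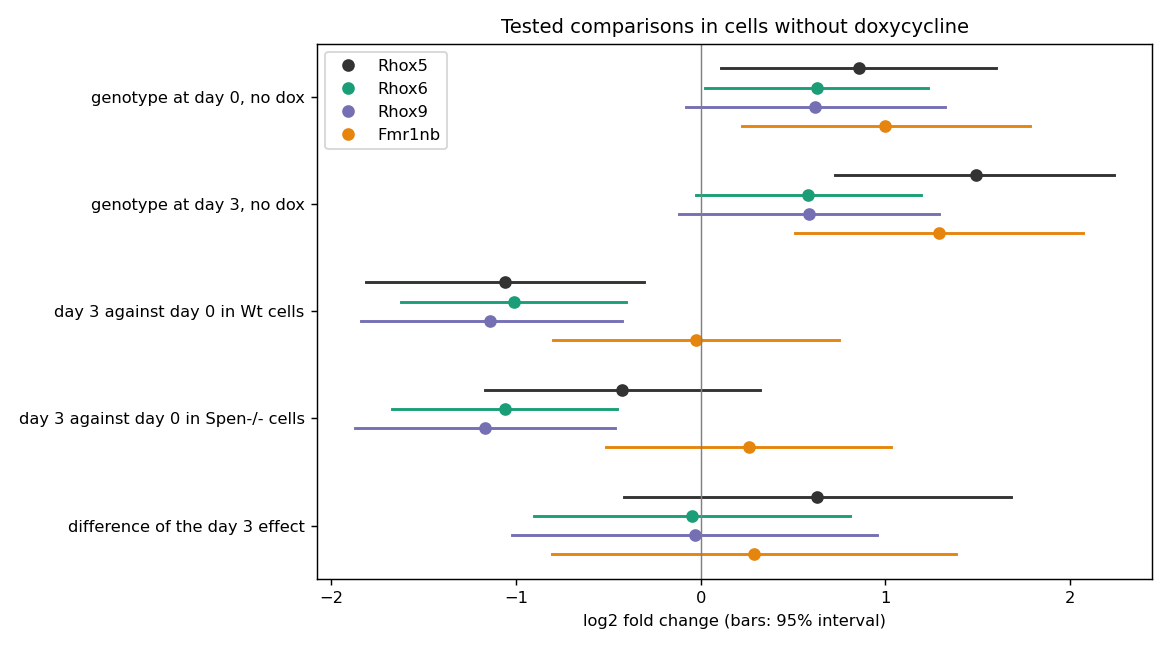
Log2 fold change of the 4 genes (points, colour by gene) with 95% intervals (bars) in the 5 comparisons among cells without doxycycline. Genotype values are Spen-/- against Wt, and the 4 genes lay above 0 in both, from 0.62 to 1 at day 0 and from 0.58 to 1.49 at day 3.

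The allelic ratio was tested in the same cells for the 3 genes that have variants. No change of the Cast to 129 ratio passed the threshold for any of them in the 4 comparisons (adjusted p of 1 in edgeR in each, with 0%, 0%, 0.024% and 0.0254% of genes called, and no unadjusted p under 0.05 for them). The genotype difference of the log2 ratio at day 0 was -0.62 for Rhox6 (SE 0.568), 0.46 for Rhox9 (SE 0.987) and -1.11 for Fmr1nb (SE 1.07). The errors of Rhox9 and Fmr1nb are wide and their reads few. At day 0 the 129 allele had 31 (Wt) and 43 (Spen-/-) reads for Rhox9, and 21 and 49 for Fmr1nb. At day 3 it had 16 to 74 reads a group for these 2 genes. The higher Spen-/- level at day 0 was seen on both alleles for Rhox6 (129 ratio of 2.53 with an interval of 2.04 to 3.17, Cast ratio of 1.6 with 1.38 to 1.85, X-linked medians of 1.1 and 0.943). For Rhox9 the ratios were 1.66 (1.02 to 2.73) on 129, where the libraries overlapped, and 1.89 (1.28 to 2.81) on Cast. For Fmr1nb they were 2.8 (1.65 to 4.91) on 129 and 1.24 on Cast, where the interval of 0.713 to 2.17 spans 1. The Cast libraries of Fmr1nb overlapped between genotypes. At day 3 the 129 ratios were 2.22 for Rhox6, 0.824 for Rhox9 (0.405 to 1.64) and 2.62 for Fmr1nb (X-linked median 1.36). Those of Cast were 1.36, 2.23 and 2.6 (X-linked median 1.08).

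Across the 8 condition means of log2 CPM, the 4 genes formed 2 pairs. Rhox6 and Rhox9 had a Pearson r of 0.9935 with each other, and no other gene was closer to either, followed for both by Slc6a8, the X-linked creatine transporter (0.969 and 0.968), and with Grhl3, an epithelial transcription factor gene on chromosome 4, also among the first 5 (0.967 and 0.965). Rhox5 and Fmr1nb had an r of 0.977 with each other and 0.623 to 0.748 with Rhox6 and Rhox9. The genes most like Fmr1nb were Pin4 (0.9915), Fancb (0.991), a gene of the Fanconi anaemia DNA repair pathway, Mageb16-ps1 (0.9905), Cul4b (0.984), which encodes a ubiquitin ligase scaffold, and Mageb16 (0.980), all X-linked. Those most like Rhox5 were Hecw2 on chromosome 1 (0.986), Fancb (0.986), Mageb16 (0.9845), Pin4 (0.982) and Fmr1nb. These values describe 8 points that share libraries, the genotype contrast and, for Rhox6 and Rhox9, part of their sequence.

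The rest of the Rhox cluster was nearly silent. The annotation holds 42 Rhox genes and pseudogenes, from chrX:37213804 to 38306028, of which 34 are protein coding. Rhox5, Rhox6 and Rhox9 took 121464 of 123491 reads on them (98.4%), the 39 others had 2027 reads together, 17 of these had none in any library, and 6 passed the filter on low counts. Rhox1, at the end of the cluster nearest to the centromere, was the highest of the tested ones, with 746 reads in all, 253 of them in uninduced Spen-/- cells at day 0, 107 in the Wt cells beside them and 0 in Wt cells at day 7. Rhox13 had 250 reads, Rhox2-ps 247 and Rhox10 157. Each of these had 0 reads in Wt cells at day 7, as did Rhox7-ps2 and Rhox7a. In Spen-/- cells at day 7 Rhox10 and Rhox7-ps2 had 0 reads too. Rhox1, Rhox13, Rhox2-ps and Rhox7a had 17, 20, 6 and 6 reads there, so these counts are near the floor in both genotypes. Rhox12 had 237 reads, all in 1 library of Spen-/- cells at day 7 (30.5 CPM). Many of the Rhox2, Rhox3 and Rhox4 genes are near-identical copies in which unique reads are few, so 0 reads there does not show that a gene is off.

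Genes next to the cluster were compared with it. Within 1 Mb of the cluster, 23 other genes were tested. Between induced genotypes their median log2 fold change was 0.72 at day 0 and 1.07 at day 7, against X-linked medians of 0.52 and 0.53. The 3 Rhox genes and Fmr1nb were chosen by this contrast. Larger folds than those of their neighbours can follow from that choice, so no conclusion is drawn from them. The other tested Rhox genes are not among the 23. Rhox1, Rhox13, Rhox2-ps and Rhox7a were at 1.97, 1.35, 3.08 and -1.95 at day 0. At day 7 they were at 6.45, 6.68, 4.86 and 4.85, from counts near the floor. On the centromeric side Gm9, the nearest and at a mean of only 2.91 CPM, was at 4.45 at day 0 and -5.83 at day 7, Rnf113a1 was at 1.34 and 1.20, Ndufa1, which encodes a subunit of respiratory complex I, at 1.27 and 1.34, Nkap at 0.64 and 0.65 and Upf3b at 0.63 and -0.19. On the other side Lamp2, a lysosomal membrane protein gene, was at 0.45 and 0.56, Cul4b at 0.93 and 1.83 and Mcts1 at 0.48 and 1.07. Zbtb33, inside the annotated span and at a mean of only 5.06 CPM, was at 2.72 and 0.56. Around Fmr1nb 6 other genes were tested, and Fmr1, the neighbour on its centromeric side, at a mean of 97 CPM, was at 0.82 and 1.17, against 3.01 and 4.71 for Fmr1nb. In uninduced cells at day 0 and day 3 none of these neighbours was called between genotypes in edgeR, and the medians around the Rhox cluster were 0.22 and 0.31.

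**Figure D5:**
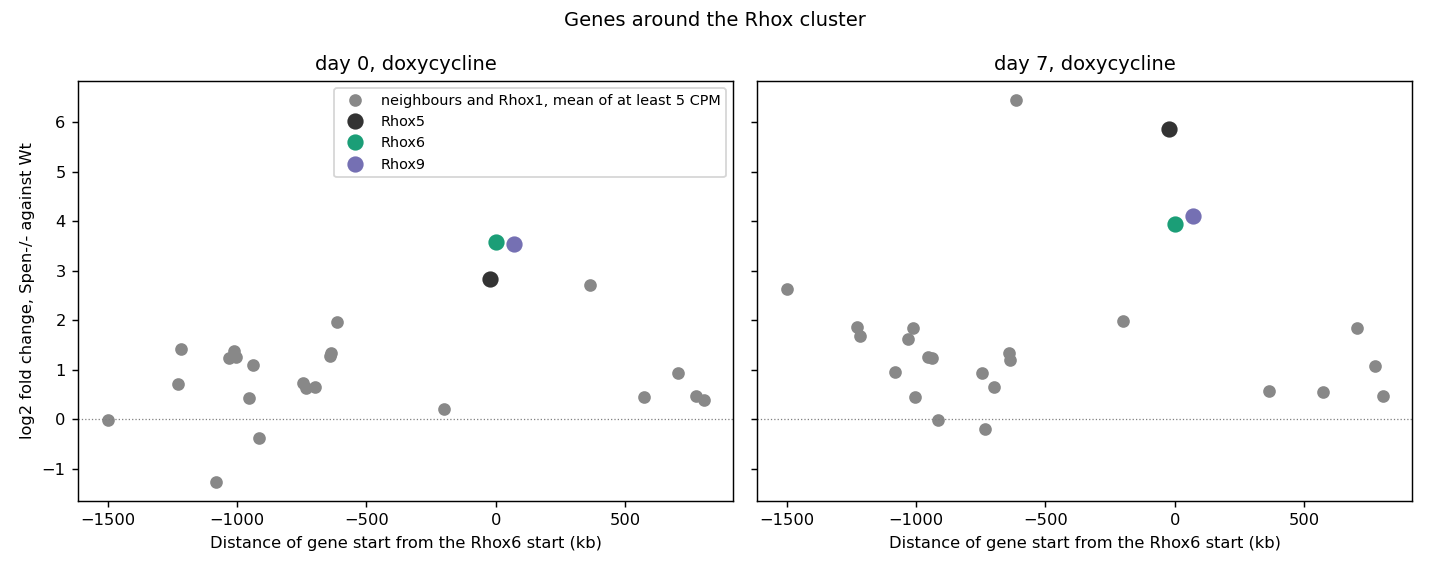
Log2 fold change of induced Spen-/- against induced Wt cells at day 0 (left) and day 7 (right) against the distance of each gene's start from the Rhox6 start in kilobases, with large points for Rhox5, Rhox6 and Rhox9 and grey points for 22 other genes with a mean of at least 5 CPM. The 3 Rhox genes lay at 2.84 to 3.58 and 3.94 to 5.87, the grey points between -1.26 and 2.72 at day 0 and between -0.19 and 6.45 at day 7, the last being Rhox1.

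Other genes of the germline and placenta were read from lists. Of 54 X-linked genes of this kind 25 were tested, and none was called by edgeR in the genotype or day 3 comparisons without doxycycline. Their median genotype difference was 0.50 at day 0, 0.86 at day 3, 1.90 at day 0 with doxycycline and 3.83 at day 7. In the last of these, with no test, 19 of 25 were above 0 and 6 below. X-linked genes as a whole were shifted the same way there, with a median of 0.53 over 715 genes. In the first 3 comparisons their medians were 0, 0.23 and 0.52. The list was at low levels at day 0 with doxycycline. Its 54 genes summed to 30 to 38.4 CPM in Wt and 102 to 131 CPM in Spen-/- cells then. Plac1, a placenta gene, was at a mean of 47 CPM in Wt and 456 CPM in Spen-/- cells at day 7, and Taf7l, a testis paralogue of a TFIID subunit, at 1.04 and 35 CPM. The 21 autosomal germline genes were all tested, none was called without doxycycline, and their median genotype difference was -0.26 at day 0, 0.16 at day 3, 0.20 at day 0 with doxycycline and 7.50 at day 7. Their summed level was 6.99 to 10.9 CPM in Wt cells at day 7, 482.5 to 505.5 CPM in Spen-/- cells at day 7, 243 to 307 CPM in Wt cells at day 0 with doxycycline and 425 to 626 CPM in the other 5 conditions. Sohlh2, a regulator of germ cell differentiation, was at 0.126 CPM in Wt and 130 CPM in Spen-/- cells at day 7, and Hormad1, a meiotic chromosome protein gene, at 0.272 and 60.4 CPM. Lower levels in Wt than in Spen-/- cells at day 7 were thus seen in both lists. At day 0 with doxycycline the autosomal list had a median of 0.20. Its sum there was nevertheless lower in Wt (243 to 307 CPM) than in Spen-/- cells (461 to 614 CPM). The cause of these differences was not tested.

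Cell state moved with several of these conditions, and its part in the results was not tested. The 14 pluripotency genes summed to 3685 to 4431 CPM in uninduced Wt and 3822 to 3919 in uninduced Spen-/- cells at day 0, to 2010 to 2056 and 2479 to 2634 with doxycycline, and to 302 to 314 and 1131 to 1612 at day 7. Without doxycycline edgeR called 8 (Wt) and 9 (Spen-/-) of these 14 as lower at day 3, against 0.953% and 0.656% of all genes. The 12 trophoblast genes, of which 11 were tested, summed to 422 to 450 CPM in induced Wt and 223 to 257 CPM in induced Spen-/- cells at day 0, and to 3530 to 3570 and 6714 to 8095 CPM at day 7, when Krt18 and Krt8 were the highest of them (1872 and 1269 CPM in Wt, 4824 and 2061 in Spen-/-). The keratins carried that difference, since between the genotypes at day 7 only 5 of the 11 tested genes were higher and 6 lower in Spen-/- cells (median -0.32), and 2 were higher and 9 lower at day 0 with doxycycline (median -0.96). By edgeR, 2 trophoblast genes were called higher at day 3 in either genotype, against 0.43% and 0.573% of all genes, and 1 lower in Spen-/- cells. Of the 12 primitive endoderm genes 11 were lower in Spen-/- than in Wt cells at day 0 with doxycycline (median -2.61), with sums of 183 to 336.5 against 229 to 419 CPM, and 9 were lower at day 7 (median -1.22). They summed to 643 to 820 CPM in Wt and 468 to 592 CPM in Spen-/- cells at day 7, with 1 called lower at day 3 in Spen-/- cells. The 12 fibroblast genes summed to 385 to 437 CPM in Spen-/- against 221 to 357.5 CPM in Wt cells at day 0 without doxycycline, to 130 to 181 against 119 to 192 with it, to 169 to 170.2 against 205 to 219 at day 3 and to 99.2 to 143 against 297 to 367 at day 7, with 1 called lower at day 3 in Spen-/- cells, and the 4 Y-linked genes, which mark male feeder cells, to 3.62 to 18.1 CPM in uninduced and 0.13 to 5.78 CPM in induced cells at day 0 and to at most 0.533 CPM later.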

How the data were processed

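RNA of 16 libraries was amplified with Smart-seq2 and sequenced as single reads of 50 bases. The authors aligned the reads with HISAT2 2.2.1 to an mm10 genome masked at strain variants, assigned them to the 129 or Cast allele with SNPsplit and counted them per gene with HTSeq 0.12.4, which left out reads that fit more than 1 gene. SAMtools 1.10 is also named in the submitters' processing notes, and the strand setting and any removal of duplicates are not given in the sources used here. The deposited values are raw counts per gene for the 129, Cast and unassigned reads of each library, and 31.6% to 45.4% of reads fell on no gene and were left out.

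Total counts are the sum of the 3 files. Genes were named from GENCODE M21. CPM values were scaled by TMM. Genes were filtered with filterByExpr (minimum count 10, minimum total count 15) and tested in 1 edgeR 4.0.16 quasi-likelihood fit over 16 libraries and 8 conditions (R 4.3.3), with Benjamini-Hochberg adjustment over all genes tested and a threshold of 0.05. The log2 fold changes have 95% intervals from the t distribution. The allelic test compared Cast with 129 counts within libraries, where both conditions had over 20 reads with a known allele. The scripts were tested on simulated counts. The members and the gene lists were chosen with earlier results of these data known. Named were the 4 genes, the other Rhox genes, genes within 1 Mb, the 5 genes most like each of the 4 and leading genes of each list, while the genes ranked around the 4 among X-linked genes and Zbtb33 were named after their values were seen. With 2 libraries against 2 an exact permutation test cannot go below p = 0.333. The alternatives were DESeq2 1.42.0, its size factors in edgeR, TMM factors from autosomal genes, other minimums of allele-specific reads, another allelic scaling, no filter, a replicate block, allele-specific reads alone, the 8 libraries without doxycycline alone and leaving out each library.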

Additional observations from a re-analysis of the deposited data

Results flagged for a closer look

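Of 24 pairs of effects compared between genotypes, times or doxycycline conditions, 1 had opposite directions with no overlap of the libraries in either. Under doxycycline at day 0, Fmr1nb differed by a log2 fold change of -1.7 in Wt cells and by 0.31 in Spen-/- cells. The difference between these effects was not tested, since the libraries are among those that chose the gene.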

How the results depend on the processing

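The number of the 4 genes called without doxycycline depended on the tool and on the filter. It was 0 in each comparison of total counts, and with DESeq2 it was 1 for genotype at day 3, 3 for day 3 against day 0 in Wt cells and 2 for the same in Spen-/- cells. With no filter on low counts (31692 genes) it was 1, 1 and 2. Leaving out each library in turn gave 0 to 1 for day 3 against day 0 in Wt cells, the 1 being Rhox9 (log2 fold change of -1.43, adjusted p = 0.0498 in edgeR) without the first Wt library of day 0. The cause was not tested. Over all genes, edgeR called 0, 0, 251, 223 and 0 in the 5 comparisons, DESeq2 38, 10, 1153, 1063 and 2, and edgeR with no filter 17, 23, 949, 916 and 13.

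No value that changed sign when 1 library was left out had been called. Log2 fold changes ran from -0.135 to 0.0981 for Fmr1nb at day 3 against day 0 in Wt cells, and the difference of the day 3 effect ran from -0.324 to 0.3 for Rhox6 and from -0.409 to 0.449 for Rhox9. The log2 change of the Cast to 129 ratio ran from -0.609 to 1.71 for Rhox9 (genotype, day 0), from -0.615 to 0.463 for Fmr1nb (genotype, day 3), from -0.745 to 0.441, -0.447 to 0.284 and -1.23 to 0.00201 for Rhox6, Rhox9 and Fmr1nb (day 3, Wt) and from -0.752 to 0.276 and -0.477 to 1.84 for Rhox6 and Rhox9 (day 3, Spen-/-). With allele-specific reads alone the described genotype difference at day 0 with doxycycline was 3.98 for Rhox9 and 2.48 for Fmr1nb, and Rhox5 has too few such reads. The other 277 values of single genes and 79 counts kept their direction and their side of the threshold.

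The labels name no link between libraries of the same replicate number beyond the number. Over 9224 genes their deviations from the condition means had a median correlation of 0.0369 over 28 pairs of conditions (-0.18 to 0.3). With 7 pairs over 0.1, the values do not show that nothing is shared. With a replicate block 0, 0, 310, 224 and 0 genes were called, 0 of the 4 in each comparison, with genotype values at day 3 of 1.55 for Rhox5 and 1.31 for Fmr1nb. The depth limits mainly the allelic values, which rest on few reads for Rhox9 and Fmr1nb.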
